A study of Mus musculus with 12 samples.

Results

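The unfolded protein response genes examined here were 10 genes of mouse pancreatic tumours: Herpud1, Atf4, Ddit3, Trib3, Xbp1, Hspa5, Hsp90b1, Pdia4, Sdf2l1 and Dnajb9. They were taken by symbol from a table of 52636 Ensembl genes, and all 10 were among the 24065 genes with enough counts to be tested. The genes were chosen by their measured expression across these 4 groups, with Herpud1 named first, and which comparison put it there is not recorded. The differences of all 10 are therefore given as a description, and no test of them is used as support. Bulk RNA was sequenced from snap-frozen pancreatic ductal adenocarcinoma tissue in 12 samples, 3 in each of 4 groups. The labels do not say that each sample is a separate mouse, but the samples are called mice or tumours below. The groups were untreated KPC/CDH11+/+ mice, untreated KPC/CDH11+/- mice, gemcitabine-treated KPC/CDH11+/+ mice and gemcitabine-treated KPC/CDH11+/- mice, all on the strain background C57BL/6; 129. They are called wild-type and heterozygous below, for the adhesion protein gene Cdh11. Every group carried the KPC tumour model, in which pancreatic tumours are started by a Cre recombinase, commonly under the Pdx1 promoter. The labels give no dose or schedule of gemcitabine, a nucleoside analogue that blocks DNA synthesis, and no age of the mice.

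The unfolded protein response is the reaction of a cell to misfolded protein in the endoplasmic reticulum (ER), and secretory cells such as those of the pancreas depend on it. Sensors in the ER membrane start it: PERK raises translation of the transcription factor ATF4, IRE1 splices the Xbp1 transcript into the form that encodes an active factor, and ATF6 is cut to release a factor of its own. ATF4 raises Ddit3, which encodes the factor CHOP, and the pseudokinase gene Trib3. ATF6 and spliced XBP1 raise the chaperones Hspa5 (BiP), Hsp90b1 (GRP94), Pdia4, Sdf2l1 and Dnajb9 (ERdj4). Herpud1 encodes a membrane protein that organises the machinery of ER-associated degradation, and it is known to respond to both the ATF6 and the ATF4 arm. ATF4 protein, XBP1 splicing and ATF6 cleavage are not visible in a count of reads per gene, so the values below measure total transcript of each gene.

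Promoter windows from 250 bases before to 50 bases after the transcription start were read from RefSeq (GRCm38.p6) for all 10 genes, and 4 motifs of this response were searched on both strands. They are shown because Herpud1 was the gene among the 10 that held matches of both the chaperone kind and the ATF4 kind. The ER stress response element, ERSE, was searched as CCAAT, 9 bases of any kind and CCACG, and was found in 0.119% of the 32851 windows in the table. Hspa5 held 1 match and Hsp90b1 held 2. With any base in the last place the share was 0.365%, and Pdia4 and Herpud1 matched as well, Herpud1 from 18 bases before the start to its first base, outside the stretch printed here. The second form of the element, ERSE-II, searched as ATTGG, 1 base of any kind and CCACG, was in 0.0365% of windows and in Herpud1, from 52 to 42 bases before the start. The ATF4 element, CARE, searched as TGATGNAAN, was in 3.95% of windows, in Herpud1 and in Trib3. It was also in 11 of the 28 listed ATF4 and CHOP target genes that had a window. A gene with several windows was counted if any of them matched, so the 3.95% has another unit. The XBP1 element, UPRE, searched as TGACGTGG, was in 0.676% of windows and in none of the 10. Atf4, Ddit3, Xbp1, Sdf2l1 and Dnajb9 had no match of these letters in this window. The searches for ERSE with its last base fixed and free overlap by construction, and a match describes letters, not a bound site. Each stretch is written 5′ to 3′ on the strand of its gene with the matches in capitals, and a match on the other strand appears as its reverse complement.
Herpud1, chr8:94386301-94386402, plus strand, CARE then ERSE-II: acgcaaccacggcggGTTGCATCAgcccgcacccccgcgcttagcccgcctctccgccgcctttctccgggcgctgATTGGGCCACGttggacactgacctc
Hspa5, chr2:34772020-34772048, plus strand, ERSE: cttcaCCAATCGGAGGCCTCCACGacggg
Hsp90b1, chr10:86705518-86705671, minus strand, ERSE at both places: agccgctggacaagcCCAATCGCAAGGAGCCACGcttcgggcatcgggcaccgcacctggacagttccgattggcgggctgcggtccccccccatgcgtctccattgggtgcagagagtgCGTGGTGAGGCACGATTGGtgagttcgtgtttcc
Pdia4, chr6:47813587-47813635, minus strand, ERSE with any last base: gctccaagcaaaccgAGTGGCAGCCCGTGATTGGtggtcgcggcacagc
Trib3, chr2:152344029-152344057, minus strand, CARE: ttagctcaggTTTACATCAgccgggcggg
Asns, chr6:7693214-7693242, minus strand, CARE: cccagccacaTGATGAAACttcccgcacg
Chac1, chr2:119351038-119351066, plus strand, CARE: cttccctgccGTTGCATCActcctgccag

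**Figure D1:**
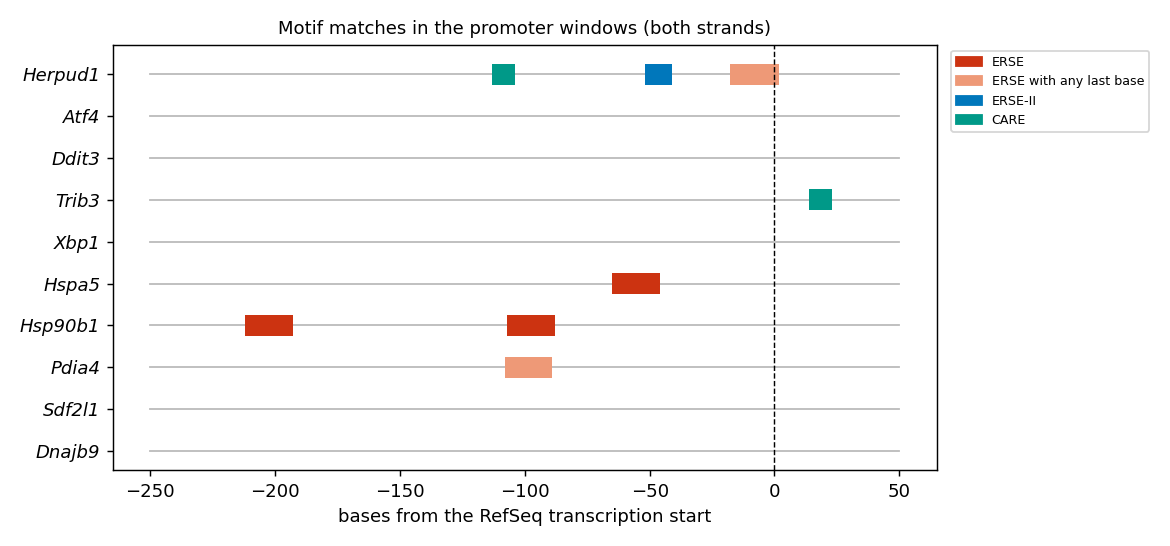
Motif matches in the promoter windows of the 10 genes, by distance in bases from the RefSeq transcription start (dashed line), with 1 row for each gene and 1 colour for each motif on either strand. Herpud1 holds 3 kinds of match, Hsp90b1 holds 2 ERSE matches, and 5 of the 10 genes hold none.

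The libraries held between 39388328 and 56559413 counts, with a median of 45785246, and gene levels varied within groups by a biological coefficient of 46.4%. Cdh11 was at 165 to 283 CPM (counts scaled to library size) in untreated wild-type and 73.7 to 148 CPM in untreated heterozygous tumours, but at 62.2 to 142 and 72 to 141 CPM in the treated groups, so it did not separate the labelled genotypes under gemcitabine. Summed fibroblast markers were lower in untreated heterozygous (4670 to 7964 CPM) than in untreated wild-type tumours (12437 to 19649 CPM), with all 13 markers detected in both. They summed to 6750 to 16904 CPM in treated wild-type and 4745 to 9746 CPM in treated labelled heterozygous tumours. Summed acinar markers lay between 12.4 and 676 CPM in untreated wild-type and between 7.41 and 36.7 CPM in untreated heterozygous tumours, with 9 of 24 acinar markers at 0 in the latter, Pnlip and Ctrc among them. Duct epithelium markers, all 13 detected, summed to 5181 to 7611 CPM in untreated wild-type, 5979 to 7573 in untreated heterozygous, 7775 to 10308 in treated wild-type and 4757 to 8179 in treated labelled heterozygous tumours. Macrophage markers, all 12 detected, summed to 1177 to 4444, 925 to 1457, 883 to 1774 and 1897 to 3263 CPM in the same order. The X-inactivation RNA Xist was high in 2, 1, 3 and 0 mice of the untreated wild-type, untreated heterozygous, treated wild-type and treated labelled heterozygous groups. In bulk tissue, fewer cells of a type and less RNA per cell cannot be told apart.

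Herpud1 was highest in the untreated heterozygous tumours and lowest in the treated ones labelled heterozygous. The untreated wild-type libraries held 77, 76.9 and 87.8 CPM, and the untreated heterozygous libraries held 101, 132 and 177 CPM. The treated wild-type libraries held 93.6, 66.7 and 98.3 CPM, and the treated labelled heterozygous libraries held 71.7, 71.7 and 64.8 CPM. All 3 untreated heterozygous libraries lay above all the other 9, whose highest value was 98.3 CPM, and treated wild-type tumours overlapped both remaining groups. All 3 treated labelled heterozygous libraries lay below all 3 untreated wild-type libraries. The share of all tested genes without overlap was not computed for that pair of groups, and was 12.7% to 15.8% for the pairs compared below. Of the 24065 tested genes, 0.731% had their 3 untreated heterozygous libraries above the other 9. No other gene of the 10 showed this order.

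The group means of Herpud1 were 80.6 ± 6.26 CPM in untreated wild-type, 136 ± 38.2 in untreated heterozygous, 86.2 ± 17.0 in treated wild-type and 69.4 ± 4 in treated labelled heterozygous tumours (SD, n = 3 each). Between genotypes without drug the fitted log2 fold change was 0.76 ± 0.22 (SE), or 1.69-fold, with a 95% interval from 0.28 to 1.24. Between treated and untreated heterozygous tumours it was -0.98 ± 0.22, or 0.508-fold, with an interval from -1.46 to -0.49. The same drug comparison in wild-type tumours gave 0.10 ± 0.22 (interval -0.38 to 0.58), and the genotype comparison under the drug gave -0.31 ± 0.22 (interval -0.79 to 0.17). The difference of both drug effects was -1.07 ± 0.31 (interval -1.75 to -0.40). These comparisons share groups, so the high untreated heterozygous values enter 3 of them at once. Leaving out each library in turn moved the untreated genotype value between 0.53 and 0.94, and the drug value in heterozygous tumours between -1.15 and -0.74. With Xist and Y-linked, acinar or plasma cell levels as covariates, the untreated genotype value was 0.68, 1.00 and 0.75, and the drug value in heterozygous tumours was -1.05, -0.98 and -0.94. The untreated heterozygous libraries also had more 7SL and 7SK RNA, at 8.19% to 9.59% of counts against 5.53% to 7.88% in untreated wild-type libraries. The treated libraries, where Herpud1 was lower, had 8.28% to 8.61% in wild-type and 7.26% to 8.52% in labelled heterozygous tumours. Fibroblast sums, given above for each group, were lower in untreated heterozygous than in untreated wild-type tumours. The part of 7SL and 7SK RNA and of fibroblast content in the Herpud1 values was not tested.

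**Figure D2:**
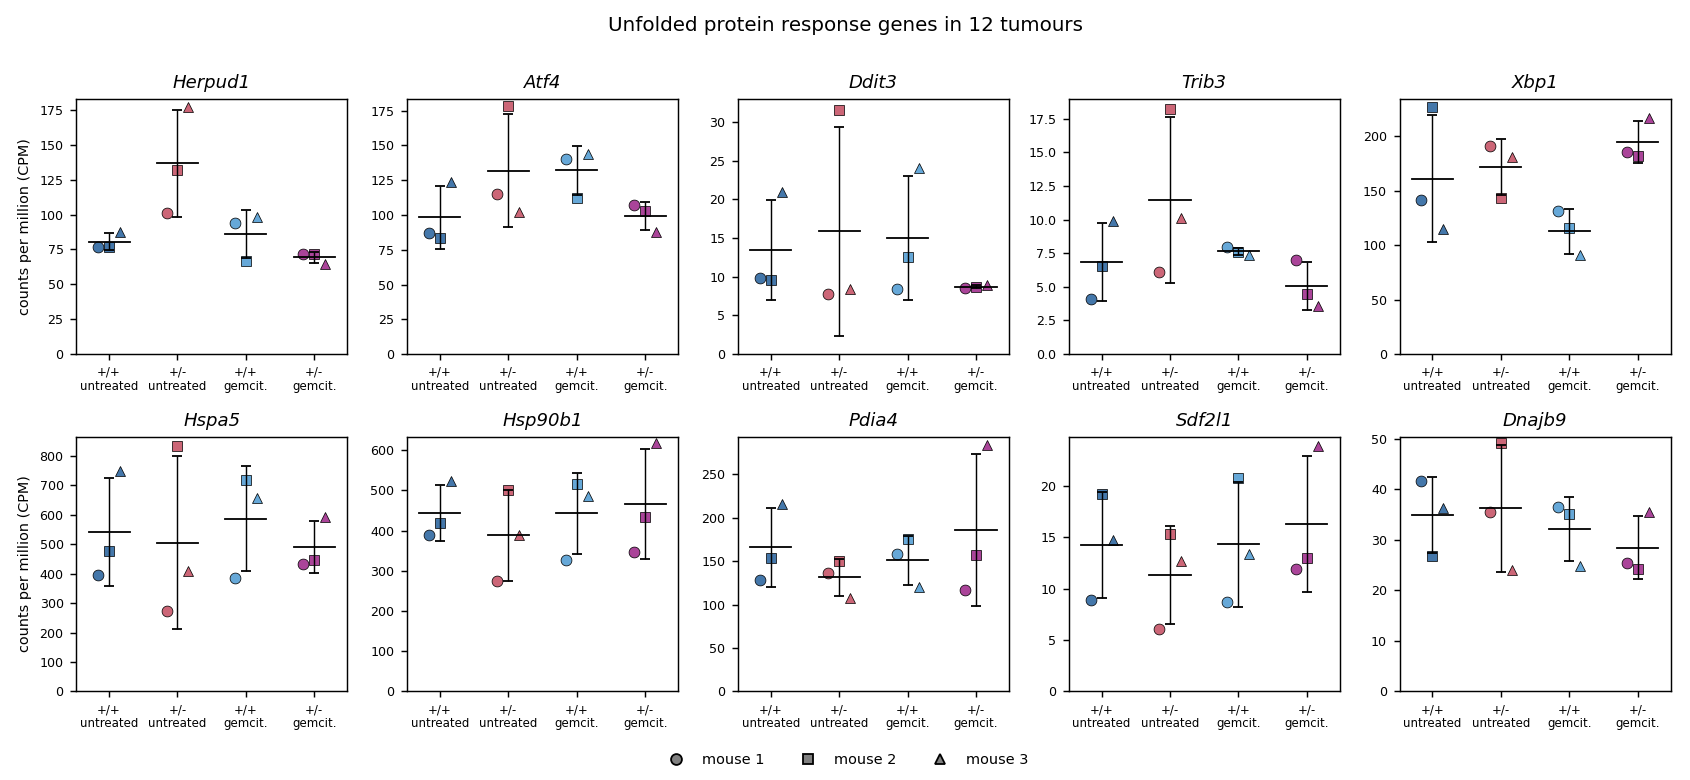
CPM of each of the 10 genes (vertical axes, from 0) in the 12 tumours, by Cdh11 genotype and treatment, with marker shapes for mouse 1, 2 and 3, long bars for group means and error bars of 1 SD (n = 3). Herpud1 is at 101 to 177 CPM in the untreated +/- tumours and at most 98.3 CPM in the other 9, and 5 genes (Atf4, Ddit3, Trib3, Hspa5 and Dnajb9) have their highest value in untreated +/- mouse 2.

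Atf4, the transcription factor of the PERK arm, ranged from 83.7 to 178 CPM. Its libraries held 86.8, 83.7 and 124 CPM in untreated wild-type and 115, 178 and 102 CPM in untreated heterozygous tumours. Under gemcitabine they held 140, 112 and 144 CPM in wild-type and 107, 103 and 87.5 CPM in labelled heterozygous tumours. The treated genotypes did not overlap, with the labelled heterozygous lower, while both untreated groups overlapped. The log2 fold changes were 0.43 ± 0.24 for the drug in wild-type and -0.40 ± 0.24 in heterozygous tumours, and their difference was -0.84 ± 0.34 (interval -1.58 to -0.10). That difference was -0.38 ± 0.35 with the plasma cell covariate, and -0.55 ± 0.29 without untreated heterozygous mouse 2.

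Ddit3, which encodes the death-associated factor CHOP, was low in most tumours and high in single mice of 3 groups. It was at 9.88, 9.52 and 20.9 CPM in untreated wild-type and at 7.82, 31.5 and 8.40 CPM in untreated heterozygous tumours. Treated wild-type tumours held 8.46, 12.6 and 24.0 CPM, and treated labelled heterozygous tumours held 8.54, 8.69 and 8.95 CPM. The treated labelled heterozygous libraries lay below the untreated wild-type ones, a pair for which no share over all genes was computed. The other pairs of groups overlapped. The coefficient of variation within a group ran from 2.38% in the treated labelled heterozygous to 84.9% in the untreated heterozygous mice. Each of its 5 comparisons in the plot of group differences had an interval that included 0, the drug value in heterozygous tumours being -0.87 ± 0.56 and 0.11 ± 0.45 without untreated heterozygous mouse 2.

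Trib3, a pseudokinase gene induced by ATF4 and CHOP, was the lowest of the 10 genes. Its untreated libraries held 4.10, 6.55 and 9.90 CPM in wild-type and 6.11, 18.2 and 10.1 CPM in heterozygous tumours. Its treated libraries held 7.94, 7.58 and 7.38 CPM in wild-type and 7.02, 4.50 and 3.61 CPM in labelled heterozygous tumours. As for Atf4, the treated labelled heterozygous libraries lay below all treated wild-type ones. The drug value in heterozygous tumours was -1.19 ± 0.44 (interval -2.14 to -0.23), although mouse 1 of the untreated group (6.11 CPM) lay below mouse 1 of the treated group (7.02 CPM). It was -0.69 ± 0.41 without untreated heterozygous mouse 2, and -0.69 ± 0.47 with the plasma cell covariate. The difference of the drug effects was -1.34 ± 0.61, and it was -0.84 ± 0.56 without that mouse.

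Xbp1, the factor gene of the IRE1 arm and a gene that plasma cells express strongly, was the one whose treated groups stood apart in the opposite direction. Untreated tumours held 141, 227 and 115 CPM in wild-type and 191, 143 and 181 CPM in heterozygous mice, which overlapped. Treated tumours held 131, 116 and 90.7 CPM in wild-type and 185, 182 and 217 CPM in labelled heterozygous mice, which did not overlap. The genotype value under the drug was 0.79 ± 0.25 (interval 0.23 to 1.35), or 1.73-fold, and without the drug it was 0.09 ± 0.25. Plasma cell markers, all 16 detected in each group, summed to 563, 2316 and 4954 CPM in the treated labelled heterozygous mice and to 535 to 869 CPM in the 9 other libraries. In that group Xbp1 was at 185 CPM in mouse 1, 182 CPM in mouse 2 and 217 CPM in mouse 3, and the part of plasma cells in the genotype value was not tested. With the plasma cell covariate the value was 0.48 ± 0.27, with the Xist and Y covariate 0.45 ± 0.37 and with the acinar covariate 0.86 ± 0.30. Xist was high in 3 of 3 treated wild-type and 0 of 3 treated labelled heterozygous mice, so Xist state and labelled genotype cannot be told apart there.

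Hspa5, the ER chaperone that holds the sensors inactive, was the most abundant of the 10 at 272 to 834 CPM. It was at 396, 478 and 749 CPM in untreated wild-type and at 272, 834 and 408 CPM in untreated heterozygous tumours. It was at 385, 718 and 657 CPM in treated wild-type and at 431, 447 and 592 CPM in treated labelled heterozygous tumours. All groups overlapped, and the untreated heterozygous group held both the lowest and the highest of the 12 values. The genotype value was -0.10 ± 0.40 without the drug and -0.26 ± 0.40 with it, and the drug value was 0.12 ± 0.40 in wild-type and -0.04 ± 0.40 in heterozygous tumours. The 95% interval for the untreated genotypes reached from -0.99 to 0.78. Without untreated heterozygous mouse 2 the untreated genotype value was -0.67 ± 0.36 and the drug value in heterozygous tumours 0.53 ± 0.36.

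Hsp90b1, the ER member of the HSP90 chaperones, was at 390, 420 and 523 CPM in untreated wild-type and at 276, 502 and 388 CPM in untreated heterozygous tumours. It was at 328, 515 and 486 CPM in treated wild-type and at 348, 435 and 617 CPM in treated labelled heterozygous tumours. All groups overlapped, and the 5 values in the plot of group differences lay between -0.19 and 0.27. Pdia4, a disulfide isomerase, was at 128, 153 and 216 CPM in untreated wild-type and at 136, 150 and 108 CPM in untreated heterozygous tumours. Under the drug Pdia4 was at 158, 175 and 120 CPM in wild-type and at 117, 157 and 284 CPM in labelled heterozygous tumours, which also overlapped. Sdf2l1, a partner of BiP, ran from 6.06 to 23.9 CPM, and Dnajb9, a co-chaperone of BiP and target of spliced XBP1, from 24.1 to 49.1 CPM. Both overlapped between all groups, with drug values in heterozygous tumours of 0.52 ± 0.45 and -0.35 ± 0.29. Hsp90b1, Pdia4 and Sdf2l1 had their highest value of all 12 in treated labelled heterozygous mouse 3 (617, 284 and 23.9 CPM). That library also had the highest plasma cell marker sum, 4954 CPM, and its part in these values was not tested. Without it the Pdia4 genotype value under the drug was -0.14, against 0.30 ± 0.32 with it.

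**Figure D3:**
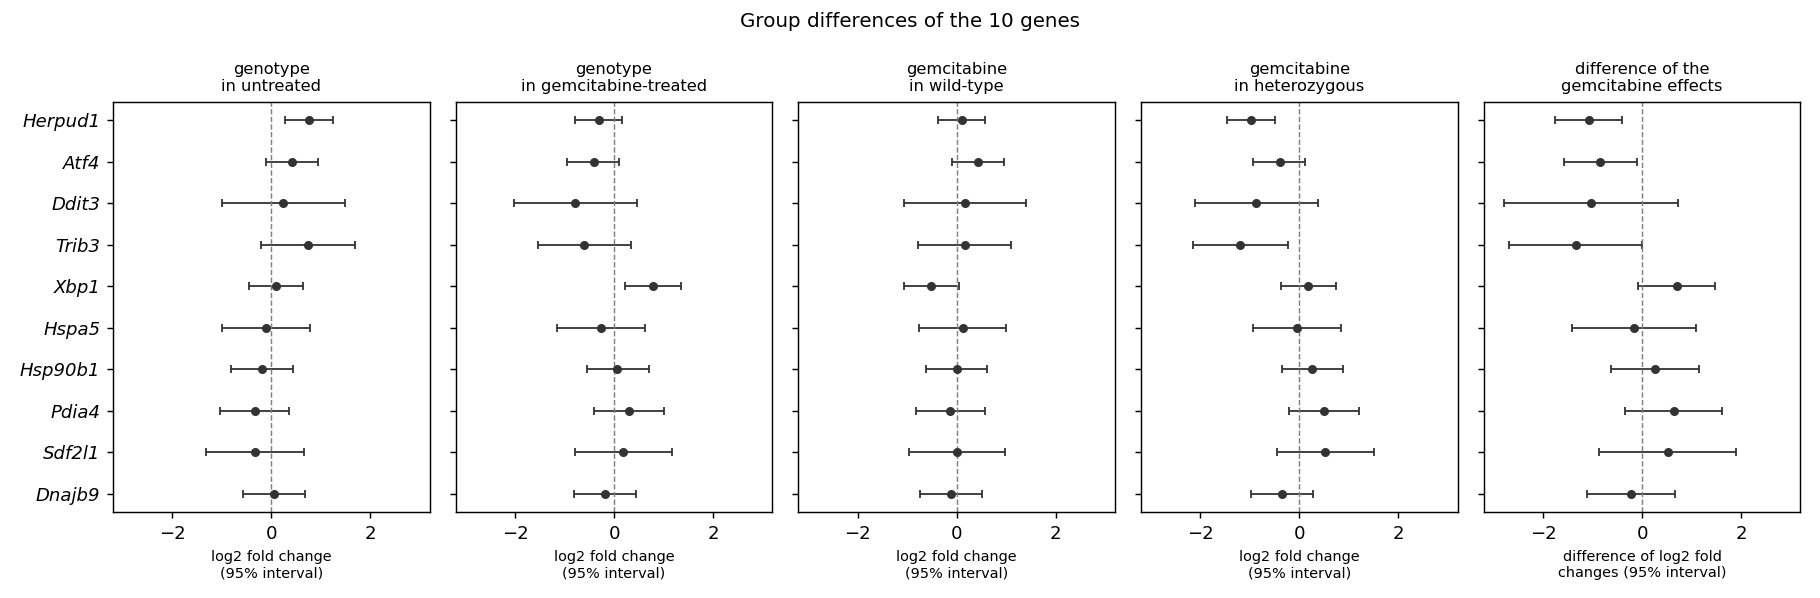
Fitted log2 fold change of each of the 10 genes (points) with its 95% interval (bars) in 5 comparisons, heterozygous against wild-type or treated against untreated, and in the last panel the drug effect in heterozygous minus that in wild-type tumours. Intervals of Herpud1 lie apart from 0 in 3 panels, which share the untreated heterozygous group, and those of Hspa5, Hsp90b1, Pdia4, Sdf2l1 and Dnajb9 include 0 in all 5. The intervals are unadjusted and the genes were chosen with results of these comparisons known, so they are a description and not a test.

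Per kilobase of exon the 10 genes spread over a wide range of levels. The mean over 12 libraries was 125 CPM per kilobase for Hspa5 and 108 for Hsp90b1, followed by 66.1 for Pdia4, 49.3 for Xbp1, 48.9 for Atf4 and 39.9 for Herpud1. Dnajb9 at 12.9, Sdf2l1 at 12.7, Ddit3 at 7.75 and Trib3 at 3.65 CPM per kilobase were lower. The ranges of neighbours in this order overlapped at each step except 1, from Herpud1 (27.8 to 75.8) to Dnajb9 (9.44 to 19.3).

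None of the 10 genes passed an adjusted p under 0.05 with edgeR's quasi-likelihood test in any of 6 comparisons, in which between 0 and 8 of 24065 genes did. For the genotypes without drug, where 0.0166% of all genes were called, 1 of the 10 had an unadjusted p under 0.05, against 12.2% of all genes, and 1 of the 10 had groups that did not overlap, against 15.8%. For the genotypes under the drug these background shares were 0.00416%, 7.55% and 13.7%, and the members numbered 0, 1 and 3. For the drug in wild-type tumours they were 0%, 8.6% and 13.7%, and the members numbered 0, 0 and 0. For the drug in heterozygous tumours they were 0.00831%, 7.9% and 12.7%, and the members numbered 0, 2 and 1. For the difference of the drug effects 3 of the 10 had an unadjusted p under 0.05, against 12.7% of all genes, of which 0.00831% were called. For the genotype averaged over treatments it was 1 of the 10 against 7.67%, with 0.0332% called. DESeq2 called 1 of the 10, Herpud1 for the drug in heterozygous tumours, where it called 0.706% of all genes, and none of the 10 in the other 5 comparisons, where it called 2.92%, 0.985%, 0.499%, 2.71% and 1.26%. The genes were chosen with results of these comparisons known, so nothing is read from these counts.

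Untreated heterozygous mouse 2 had the highest value of all 12 libraries for 5 of the 10 genes, namely Hspa5, Ddit3, Atf4, Dnajb9 and Trib3. It was an untreated tumour with 3.89% of its counts in mitochondrial genes and 9.59% in 7SL and 7SK RNA, both the highest of the 12, and the part of these was not tested. The median log2 fold change of the 10 genes between untreated genotypes was 0.07, beside 0.04 over all tested genes, and it was -0.33 without this mouse. For the drug in heterozygous tumours the median was -0.20, beside -0.03 over all genes, and 0.08 without this mouse. For the difference of the drug effects it was -0.19, beside -0.07, and 0.23 without this mouse. The sign of each of these 3 medians thus turned on 1 tumour. Herpud1 kept its values without it, at 0.78 ± 0.25 between untreated genotypes and -1.0 ± 0.25 for the drug in heterozygous tumours. Of the remaining untreated heterozygous mice the mean was 340 CPM for Hspa5, 8.11 for Ddit3, 108 for Atf4, 29.8 for Dnajb9 and 8.12 for Trib3. The medians of the other comparisons were -0.22 for the genotypes under the drug (all genes -0.03), 0.05 for the drug in wild-type tumours (0.01) and -0.04 for the averaged genotype (0.01).

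Whether the 10 genes moved together from mouse to mouse was examined on log2 CPM after the mean of each group was subtracted, over all 45 pairs in 12 libraries. Hspa5 and Hsp90b1 rose and fell together, with Pearson r = 0.90 and Spearman rho = 0.93. Both had an exact permutation p of 0.00077, the smallest that the 1296 arrangements tested could give, and an adjusted p of 0.035 over the 45 pairs. Without the 2 libraries farthest from the median of Hspa5 the r was 0.90. Hspa5 with Hsp90b1 was the 1 pair of 45 that passed the threshold. In the pairs below the 2 libraries left out were chosen in the same way by the first-named gene, which is Herpud1 in all of its pairs. The next highest were Hspa5 with Ddit3 (r = 0.87, rho = 0.83, exact permutation p = 0.021 and 0.017, adjusted 0.23 and 0.13, r = 0.71 without the 2 libraries) and Hsp90b1 with Sdf2l1 (r = 0.86, rho = 0.87, p = 0.0093 and 0.0085, adjusted 0.14 and 0.12, r = 0.78). Ddit3 with Atf4 gave r = 0.79 (rho = 0.63, exact permutation p = 0.054 and 0.11, adjusted 0.29 and 0.46, r = 0.63). Xbp1 ran opposite to Ddit3, at r = -0.74 (rho = -0.77, exact permutation p = 0.0069 and 0.011, adjusted 0.14 and 0.12, r = -0.81).

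None of the pairs of Herpud1 passed the threshold. With the chaperones its r was 0.11 for Hspa5, 0.09 for Hsp90b1, 0.03 for Sdf2l1, -0.34 for Pdia4 and -0.47 for Dnajb9. The r with Hspa5 was 0.11 (rho = 0.02, exact permutation p = 0.85 and 0.97, adjusted 0.96 and 0.97, r = -0.17 without 2 libraries). The r of -0.47 with Dnajb9 was the farthest from 0 of its 9 pairs (rho = -0.40, exact permutation p = 0.30 and 0.31, adjusted 0.66 and 0.71, r = -0.33). Its highest positive r was 0.39, with Trib3 (rho = 0.34, exact permutation p = 0.40 for both, adjusted 0.69 and 0.77, r = 0.27). On the levels themselves, group differences included, r was 0.69 with Trib3, 0.45 with Atf4 and -0.06 with Hspa5. A p that misses the threshold in 12 libraries does not show that Herpud1 is unrelated to the chaperones.

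**Figure D4:**
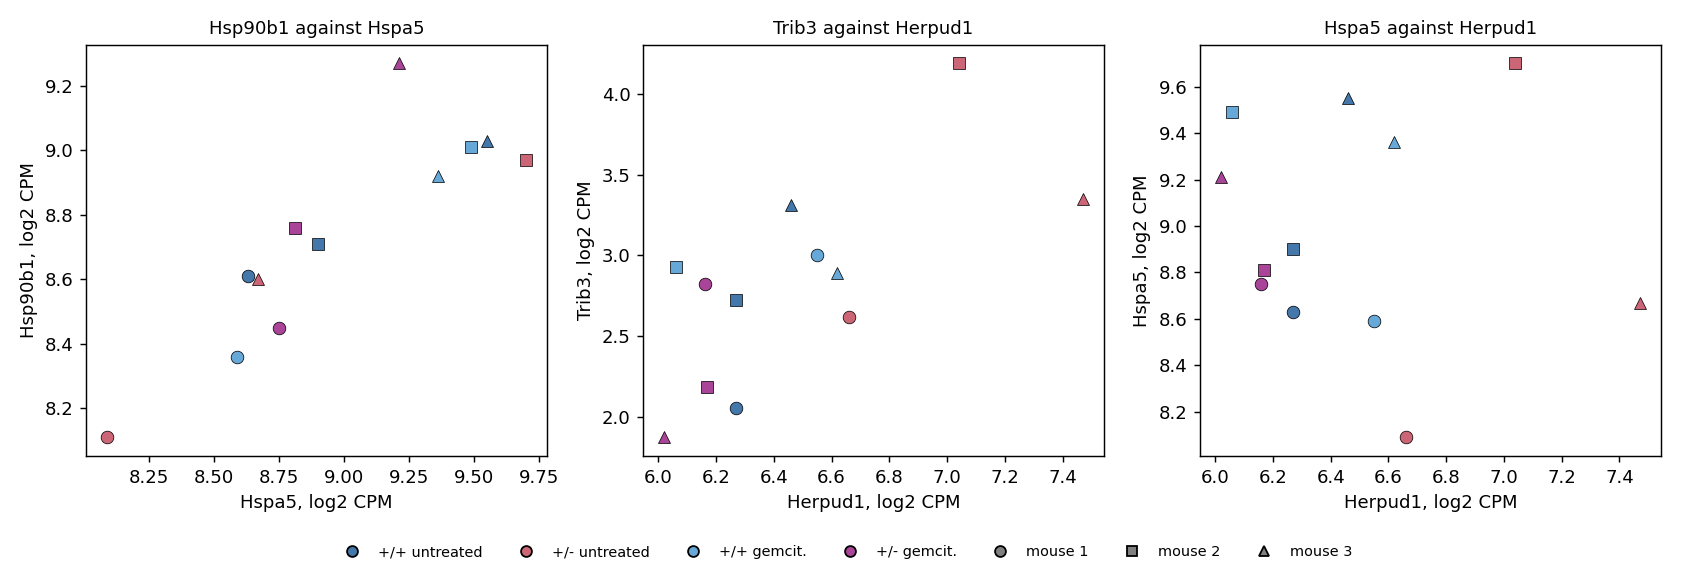
Log2 CPM of pairs of genes in the 12 tumours (colours for groups, shapes for mice): Hsp90b1 against Hspa5, Trib3 against Herpud1 and Hspa5 against Herpud1. The first pair lies along a line in all groups (r = 0.90 after group means were subtracted), and Hspa5 against Herpud1 scatters (r = 0.11).

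Among 12733 genes with a mean of at least 5 CPM, those most like Herpud1 over the 12 libraries, group means subtracted, were Cluap1 (r = 0.93), Rnu12 (0.90), Tarbp2 (0.89), Ift52 (0.89), Rfesd (0.87) and Rhobtb1 (0.87). Rnu12 is the U12 RNA of the minor spliceosome, Ift52 and Cluap1 encode proteins of transport in cilia, and Tarbp2 encodes a partner of Dicer. None of the 6 was on a list of the unfolded protein response, and Trib3 ranked 1784 and Hspa5 4903 of the 12733. Rnu12 was at 18.4, 27.8 and 40.5 CPM in untreated heterozygous and 13.8, 10.5 and 12.9 CPM in untreated wild-type tumours, which did not overlap. Unlike Herpud1, it overlapped between untreated heterozygous and treated wild-type tumours, which held 25.9, 17.8 and 33.0 CPM. All 6 genes had their highest of 12 values in untreated heterozygous mouse 3, at 17.8, 40.5, 28.6, 32.8, 7.73 and 65.6 CPM in the order named. Herpud1 was also highest there, at 177 CPM, and the part of this 1 library in the r values was not tested. These likenesses are a description of 12 libraries and carry no p, and library composition is shared by all genes in them.

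Another 135 genes of the pathway on 6 lists were examined for comparison, all of them tested. With edgeR none of the 135 passed an adjusted p under 0.05 in any of the 6 comparisons, and the lowest adjusted p was 0.21. At an unadjusted p under 0.05 there were 11 between untreated genotypes (4 higher, 7 lower), 14 between treated genotypes (0 higher, 14 lower) and 6 for the drug in wild-type tumours (5 higher, 1 lower). There were 12 for the drug in heterozygous tumours (4 higher, 8 lower), 11 for the difference of the drug effects (4 higher, 7 lower) and 9 for the averaged genotype (2 higher, 7 lower). As shares of the 135 these were 8.15%, 10.4%, 4.44%, 8.89%, 8.15% and 6.67%, against 12.2%, 7.55%, 8.6%, 7.9%, 12.7% and 7.67% of all genes, near or below the background in most comparisons. DESeq2 called 2, 3, 0, 1, 5 and 1 of the 135 in the same order, and 2.92%, 0.985%, 0.499%, 0.706%, 2.71% and 1.26% of all genes. Genes named from these lists are those with an unadjusted p under 0.05 in the comparison, a restriction made after the values were seen.

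The list of 33 ATF4 and CHOP targets, genes of amino acid supply and of the stress response, held 4, 6, 6, 5, 6 and 2 of these genes with an unadjusted p under 0.05, in the same order. Of all genes 12.2%, 7.55%, 8.6%, 7.9%, 12.7% and 7.67% had such a p. Between untreated genotypes its median log2 fold change was 0.11 with 23 of 33 positive, and between treated genotypes it was -0.39 with 28 of 33 negative. For the drug the median was 0.38 in wild-type tumours (24 of 33 positive) and -0.14 in heterozygous tumours (23 of 33 negative). For the difference of the drug effects it was -0.46 with 27 of 33 negative, beside -0.07 over all genes. The medians over all genes in the 4 preceding comparisons were 0.04, -0.03, 0.01 and -0.03. Of all 24065 tested genes 12919 were positive between untreated genotypes and 12779 negative between treated genotypes. For the drug 12278 were positive in wild-type and 12791 negative in heterozygous tumours, and 13042 were negative for the difference. The 13 duct epithelium markers had medians of the same sign in all 5 comparisons, at 0.28, -0.51, 0.43, -0.47 and -0.83, and the part of epithelial content was not tested. These comparisons share their control groups. DESeq2 called 2, 2, 0, 1 and 4 of the 33 in these comparisons, beside 2.92%, 0.985%, 0.499%, 0.706% and 2.71% of all genes, and edgeR none.

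Asns, the asparagine synthetase and a standard readout of ATF4, was at 11.7, 17.1 and 13.8 CPM in untreated wild-type and at 61.4, 21.6 and 37.1 CPM in untreated heterozygous tumours. Under the drug Asns was at 19.7, 39.6 and 23.4 CPM in wild-type and at 13.6, 15.3 and 20.3 CPM in labelled heterozygous tumours. As for Herpud1, the untreated heterozygous libraries lay above the untreated wild-type and above the treated labelled heterozygous ones, but they overlapped the treated wild-type ones. Its log2 fold change was 1.5 ± 0.38 between untreated genotypes (edgeR adjusted p = 0.21) and -1.29 ± 0.38 for the drug in heterozygous tumours (edgeR adjusted p = 0.59). The difference of the drug effects was -2.24 ± 0.53 (edgeR adjusted p = 0.25). DESeq2 called the first and the last.

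Slc7a11, the cystine transporter, was at 147, 143 and 85.9 CPM in untreated heterozygous tumours and at 77.8, 62.7 and 37.5 CPM in untreated wild-type ones. Its treated wild-type libraries held 24.7, 68.7 and 57.3 CPM. As for Herpud1, all 3 untreated heterozygous libraries of Slc7a11 lay above the other 9, an order that 0.731% of tested genes showed. Its treated labelled heterozygous libraries held 47.7, 32.5 and 15.7 CPM, a log2 fold change of -1.97 ± 0.47 against the untreated ones (edgeR adjusted p = 0.59, called by DESeq2). Wars, a tryptophanyl-tRNA synthetase gene, was at 168, 122 and 198 CPM in untreated heterozygous and 95.7, 118 and 78.8 CPM in treated labelled heterozygous tumours. In wild-type tumours Wars was at 102, 107 and 111 CPM untreated and at 129, 163 and 136 CPM treated. Unlike for Slc7a11, the treated wild-type libraries overlapped the untreated heterozygous ones. The Wars difference of the drug effects was -1.15 ± 0.30 (edgeR adjusted p = 0.25, called by DESeq2). Untreated heterozygous mouse 2, highest for Atf4 and Trib3, was the lowest of its 3 for Asns and Wars.

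Chac1, a glutathione-degrading enzyme gene, was low throughout, at 1.48, 1.66 and 2.58 CPM in untreated wild-type and 3.71, 5.55 and 1.73 CPM in untreated heterozygous tumours. It was at 9.53, 4.11 and 3.60 CPM in treated wild-type and at 1.68, 1.49 and 1.65 CPM in treated labelled heterozygous tumours, which did not overlap. Its genotype value under the drug was -1.84 ± 0.49 (edgeR adjusted p = 0.55) and its difference of the drug effects -2.78 ± 0.69 (edgeR adjusted p = 0.25), both called by DESeq2. Gdf15, a secreted stress cytokine gene, had 45 to 208 counts in treated wild-type and 7 to 25 counts in treated labelled heterozygous libraries (-3.13 ± 0.94, edgeR adjusted p = 0.55, called by DESeq2). Aars and Xpot, genes of tRNA charging and export, had drug values in wild-type tumours of 0.54 ± 0.20 and 0.62 ± 0.17 (edgeR adjusted p = 0.56 for both). Cebpb, a transcription factor gene that many inflammatory signals also raise, lay the other way between untreated genotypes, at 41.3, 40.7 and 31.4 CPM in untreated wild-type and 19.2, 24.9 and 14.2 CPM in untreated heterozygous tumours. Its genotype value there was -0.96 ± 0.27 (edgeR adjusted p = 0.24, called by DESeq2), and its drug value in wild-type tumours was -1.03 ± 0.27 (edgeR adjusted p = 0.56). All 12 macrophage markers had negative values in both comparisons, with medians of -0.80 and -0.84, and their part in the Cebpb values was not tested.

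**Figure D5:**
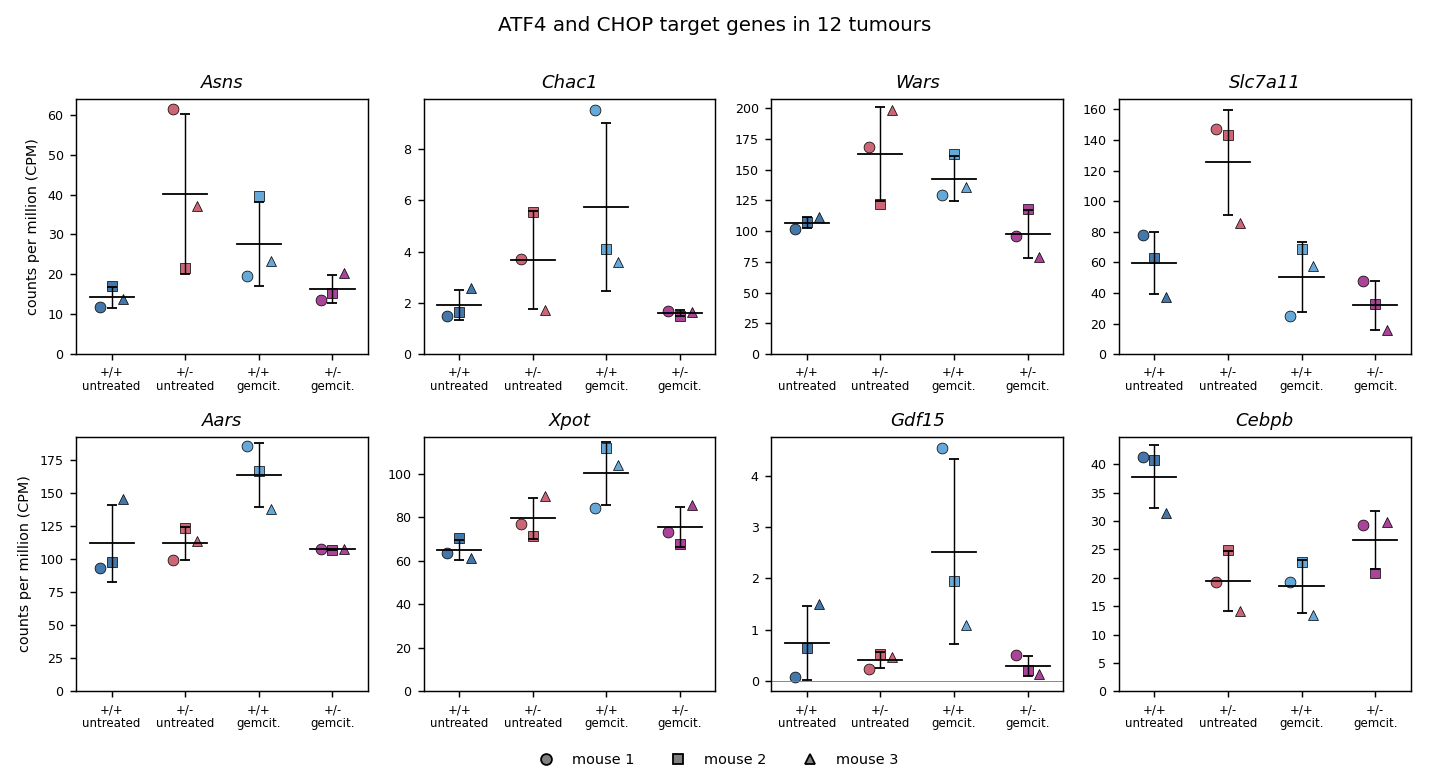
CPM of 8 ATF4 and CHOP target genes in the 12 tumours by Cdh11 genotype and treatment, with marker shapes for mouse 1, 2 and 3, long bars for group means and error bars of 1 SD (n = 3). Asns, Wars and Slc7a11 are higher in all 3 untreated +/- tumours than in the untreated +/+ and the treated +/- tumours, and Cebpb is lower in the untreated +/- than in the untreated +/+ tumours.

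The list of 24 ER chaperones and folding enzymes leaned the other way between untreated genotypes, with a median of -0.17 and 20 of 24 negative, beside 0.04 over all genes. Pdia5 (-0.69 ± 0.25, edgeR adjusted p = 0.32), Ero1lb (-0.97 ± 0.37, 0.33), Fkbp14 (-0.55 ± 0.23, 0.38) and Pdia3 (-0.43 ± 0.19, 0.39) had the smallest p-values. Fkbp14 acts on collagen, and fibroblast marker sums were lower in the same tumours. Ero1lb is strong in secretory cells of the pancreas. Islet (endocrine cell) marker sums were lower there, at 5.08 to 8.1 CPM against 25.8 to 302 CPM in untreated wild-type tumours. Acinar marker sums overlapped between these groups, with 20 of 21 tested acinar markers negative. The part of these cells was not tested. For the drug in heterozygous tumours the median of this list was 0.25 with 20 of 24 positive, Manf, a secreted ER protein gene, being at 0.67 ± 0.28 (edgeR adjusted p = 0.61) and Ero1lb at 0.94 ± 0.37 (0.60). Plasma cell marker sums were higher in mice 2 and 3 of that treated group, while Ero1lb was highest in mouse 1, at 21 CPM. All 15 tested islet markers had positive values in that comparison, with a median of 2.63. Islet marker sums in mice 1, 2 and 3 of that treated group were 17.4, 85.5 and 6.26 CPM. The part of plasma and islet cells was not tested. In wild-type tumours under the drug the median was -0.05, beside 0.01 over all genes.

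The 24 genes of ER-associated degradation, the pathway of Herpud1 itself, had medians of -0.01 between untreated genotypes and -0.13 for the drug in heterozygous tumours, beside 0.04 and -0.03 over all genes. They had 0 and 1 genes at an unadjusted p under 0.05 there, against 12.2% and 7.9% of all genes. The latter was Derl3, at 1.42 ± 0.60 (edgeR adjusted p = 0.61), a gene strong in secretory cells, and it lay in the opposite direction to Herpud1. The 18 sensors and regulators had medians of 0.04 and -0.17 in the same comparisons. Creb3l1, an ER-bound factor gene of matrix-secreting cells, was at -1.47 ± 0.54 between untreated genotypes (edgeR adjusted p = 0.33), where fibroblast sums were lower as well. It was at -1.29 ± 0.54 between treated genotypes (edgeR adjusted p = 0.64). There the 13 fibroblast markers had a median of -0.18, with 6 positive and 7 negative. The part of fibroblasts was not tested. Ern2, the epithelial form of IRE1, was at 8.84, 12.5 and 4.87 CPM in untreated wild-type and at 78.8, 3.65 and 15.2 CPM in untreated heterozygous tumours. Treated tumours held 20.7, 21.9 and 46.2 CPM of Ern2 in wild-type and 3.49, 8.29 and 10.3 CPM in labelled heterozygous mice. Its difference of the drug effects was -3.90 ± 1.24 (edgeR adjusted p = 0.28, called by DESeq2). The drug value was 1.76 ± 0.87 in wild-type tumours, whose libraries did not overlap. It was -2.14 ± 0.88 in heterozygous tumours, where 1 untreated library lay far above the rest.

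Among 12 cell death genes of ER stress, Bbc3, which encodes PUMA, was at -1.0 ± 0.35 between treated genotypes and at -1.11 ± 0.35 for the drug in heterozygous tumours (edgeR adjusted p = 0.57 and 0.59). Casp12, an ER-associated caspase gene, was at -1.06 ± 0.41 between untreated genotypes and at 1.20 ± 0.42 for the drug in heterozygous tumours (edgeR adjusted p = 0.34 and 0.59), opposite to Herpud1 in both. Of 24 genes of ER translocation and transport, Sec11c was at 0.74 ± 0.27 between untreated genotypes (edgeR adjusted p = 0.32), and Kdelr1, an ER retention receptor gene, at -0.39 ± 0.14 for the drug in heterozygous tumours (edgeR adjusted p = 0.59). The 14 genes of cytosolic heat shock, a separate response to misfolded protein, had medians of 0.13 between untreated genotypes and -0.45 for the difference of the drug effects. Of these 14, Hsf1, the master factor of that response, was at 0.60 ± 0.25 between untreated genotypes (edgeR adjusted p = 0.37).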

How the data were processed

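RNA was prepared per the labels' protocols with the TruSeq Stranded Total RNA kit after rRNA depletion, and each sample has 1 library. The authors deposited expected counts per Ensembl gene for each of 12 libraries, made with RSEM on GRCm38 per the submitters' processing notes. For the aligner, all versions, annotation release and strand setting the sources used here give nothing, so reads of overlapping or antisense genes and of near-identical copies may be split in ways the counts do not show. All deposited expected counts were whole numbers. The labels number 3 samples a group without saying that each is a separate mouse; they are called mice here, and p-values measure the spread between these samples.

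Symbols came from GENCODE M21 for 52489 of 52636 IDs, and levels per kilobase used its exon lengths. Genes passing filterByExpr (24065) were fitted with edgeR 4.0.16 (TMM, factors 0.897 to 1.09, robust quasi-likelihood test, 1 mean per group, 12 libraries), with Benjamini-Hochberg adjustment over all genes tested and a threshold of 0.05. A log2 fold change is the edgeR contrast of group means with its SE and 95% interval. CPM used TMM-scaled library sizes, and log2 CPM a prior count of 2. Correlations were tested by rearranging libraries within groups (1296 arrangements, two-sided). Named genes were all 10 members, Cdh11, the 6 genes most like Herpud1, and up to 4 genes with the smallest p of each list and comparison. The members and lists were chosen with earlier results of these data known. Alternatives were DESeq2 1.42.0, other filters and fits, a replicate block, Xist and Y, acinar and plasma cell covariates, and leaving out each library. The edgeR fit was tested on simulated data first. At a simulated 2-fold change it recovered from 0% (difference of the drug effects) to 24% (averaged genotype) of 50 changed genes per comparison. At a 4-fold change it recovered from 16% to 84% in these 2 comparisons. A gene that edgeR did not call is therefore not shown to be unchanged. The whole-series table, equal to the 12 library files, was not used. Promoter sequences are from RefSeq (GRCm38.p6).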

Additional observations from a re-analysis of the deposited data

How the results depend on the processing

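Of the fold changes of the 10 genes under other settings, 1155 stayed within the spread between mice and 25 did not, none of them of Herpud1, and of their medians 115 did and 3 did not. These 3 were without untreated heterozygous mouse 2, at -0.33 between untreated genotypes, 0.08 for the drug in heterozygous tumours and 0.23 for the difference of the drug effects. Counts of genes called are given in the order genotype untreated, genotype treated, drug in wild-type, drug in heterozygous, difference of the drug effects and averaged genotype. With edgeR they were 4, 1, 0, 2, 2 and 8, and with DESeq2 703, 237, 120, 170, 652 and 304. The cause of that difference was not tested. Without a filter on low counts the first was 10. With the compared groups alone the first was 2 and the second 12. Whether replicate numbers pair the mice is not known. Of 18 same-numbered pairs 4 had correlated deviations over 0.1 (r from -0.247 to 0.173), which cannot exclude a pairing. With the replicate block the second count was 0 and the last 4. With the Xist and Y covariate these were 0 and 3, with the plasma cell covariate 0 and 4, and with the acinar covariate the last was 3. Leaving out each library gave 2 to 12, 0 to 4, 0 to 1, 2 to 9, 2 to 7 and 3 to 13 genes called. Over the same settings the median of the 10 genes ran from -0.33 to 0.16, -0.30 to -0.10, -0.09 to 0.15, -0.37 to 0.08, -0.37 to 0.23 and -0.17 to 0.05. Of the other pathway genes named, 12 results passed with DESeq2 and not with edgeR, and Sec11c turned its sign for the averaged genotype with the Xist and Y covariate (-0.04). Depth limits Gdf15, with 3 to 208 counts a library, more than the 10 genes, of which Trib3, the lowest, had 180 to 843.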
